A study of Mus musculus with 6 samples.

Results

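The insulin-like growth factor (IGF) system was examined in sorted cells of the embryonic mouse genital tubercle through 9 genes: Igf1, Igf2, H19, Igf1r, Igf2r, Igfbp2, Igfbp3, Igfbp4 and Igfbp5. The array has probe sets annotated to 18193 genes singly. All probe sets annotated to the 9 genes were taken, 26 of the 45037 non-control probe sets on the array. Of the 26, 24 were annotated to 1 gene. The single H19 probe set is also annotated to Mir675, the microRNA gene inside H19, and 1 of the Igf2r probe sets is also annotated to Airn, a transcript antisense to Igf2r. Tubercles came from embryos at 12.5 days post coitum on a mixed background, with males and females pooled. Embryos of both groups carried the alleles Shhtm1(EGFP/cre)Cjt and Gt(ROSA)26Sortm3(CAG-EYFP)Hze, so that cells with a history of Shh transcription become fluorescent. Trypsin-dissociated cells had been sorted into reporter-positive cells, labelled urethral epithelium, and reporter-negative cells, the remaining cells of the tubercle. Each group had 3 arrays, and replicates 1, 2 and 3 were pools of 3, 5 and 2 littermates in either group. The Cre allele occupies the Shh locus, so both groups also share an altered Shh gene. The comparison asks how IGF transcripts differ between the Shh-lineage epithelium and the other tubercle cells.

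IGF1 and IGF2 are secreted growth factors that act through the receptor tyrosine kinase IGF1R. IGF2R, which is also a mannose 6-phosphate receptor, takes IGF2 up for breakdown in lysosomes, and the IGF binding proteins hold the ligands outside the cell and can limit or prolong their action. In mouse embryos mesenchyme is a major source of both ligands, Igf2 is transcribed from the paternal and H19 from the maternal chromosome, and both genes use a shared set of enhancers.

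Signal strength differed greatly between arrays. The median deposited signal of named probe sets was 4.75, 3.58 and 0.34 in positive replicates 1, 2 and 3 and 7.65, 8.89 and 2.16 in negative replicates 1, 2 and 3, while hybridization controls averaged 1443 to 1884 on all 6. Positive replicate 3 was the dim array that stood apart, with 24.9% of named probe sets above the brightest control for an RNA that was not added, against 44.1% to 59.4% on the others. IGF results are therefore given with and without it. Of the 26 IGF probe sets, 23, 19 and 13 exceeded that control in positive replicates 1, 2 and 3, against 25, 22 and 20 in negative replicates 1, 2 and 3. The 3′ to 5′ signal ratio of beta-actin, which increases as RNA or its labelled copy becomes shorter, was 4.23, 10.8 and 10.3 in positive replicates 1, 2 and 3 and 4.45, 4.88 and 6.98 in negative ones. That of Gapdh did not have this order, at 6.18, 7.12 and 7.35 in positive replicates 1, 2 and 3 and 9.27, 8.82 and 5.83 in negative ones. The label was compared with 15 epithelial markers, chosen with earlier results of these data known, so they are no independent check of it. All 15 exceeded the unspiked control on every positive array, and 7, 6 and 8 did so in negative replicates 1, 2 and 3. All 15 had a positive log2 difference in the 6 arrays. Mesenchymal signal was also present in positive arrays. Mesenchymal markers exceeded the control for 15, 11 and 7 of 15 genes in positive replicates 1, 2 and 3, against 14 to 15 on negative arrays, and none was listed at 0.

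No IGF probe set passed an adjusted p of 0.05 in either comparison (limma with group as the only term and Benjamini-Hochberg adjustment over all probe sets tested). With pool size added as a block, an alternative fit, 5 IGF probe sets passed in the 5 arrays without positive replicate 3. They were among 953 called of 29410 probe sets, and the same block called 0 in the 6 arrays. In the 6 arrays 24 of the 26 were bright enough to be tested, among 29378 probe sets in all, of which 0.0136% were called, 3 of Krt8 and 1 of Shh. At an unadjusted p under 0.05 limma counted 6 of the 24, 1 higher and 5 lower in positive cells, where the background was 4.35% of all tested probe sets, 1.87% higher and 2.47% lower. The 5 lower were 1 of Igf1 and otherwise probe sets of Igfbp4, which are not independent readings. All 3 positive arrays lay above all 3 negative arrays for 1 of the 24 and below them for 3, against a background of 5.63% and 6.66% of all tested probe sets. Among the 3 lower, 1419519_at of Igf1 and 1437406_x_at of Igfbp4 were not above the unspiked control in positive replicate 3. Without positive replicate 3, 25 of the 26 were tested, 0 passed, and 7 had an unadjusted p under 0.05, with 0.381% and 7.78% of 29410 probe sets past these limits. These 7 were the same 6 and 1 of Igf2r. The groups of these 5 arrays did not overlap for 1 higher and 3 lower IGF probe sets, against a background of 11.8% and 11.3%. The median log2 difference of the tested IGF probe sets was -0.27 in 6 arrays and -0.09 in 5, beside -0.01 over all tested probe sets in either case.

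**Figure D1:**
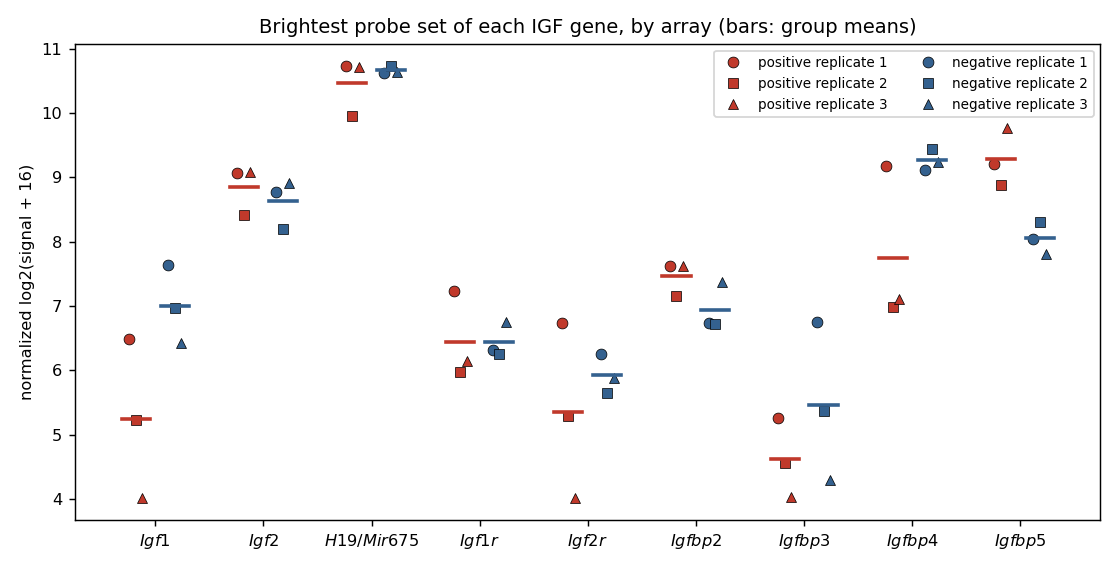
Normalized log2(signal + 16) of the brightest probe set of each IGF gene in the 6 arrays, with reporter-positive arrays in red to the left of reporter-negative arrays in blue, a symbol for each replicate and a bar at each group mean. Igfbp5 in positive arrays (8.89 to 9.78) lies above negative arrays (7.81 to 8.31), while its mean difference turns negative in the 6 arrays in values as deposited or median centred but not in the 5 arrays without positive replicate 3, and Igfbp4 in positive replicate 1 (9.18) lies with the negative arrays. Heights of different genes are not comparable, because each probe set has its own affinity.

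Normalized Igf1 signal was lower in every positive array for 1 of its 4 probe sets, which was not above background in positive replicate 3. The largest ligand difference was that of the brightest Igf1 probe set. The brightest Igf1 probe set, 1437401_at, read 66.5, 13.9 and 0.03 in deposited units in positive replicates 1, 2 and 3, against 317, 258 and 25.1 in negative replicates 1, 2 and 3. The value of 0.03 is below that array's unspiked control of 1.12, so Igf1 was not above background there. After normalization the log2 values were 6.48, 5.23 and 4.01 in positive arrays and 7.64, 6.96 and 6.42 in negative arrays, and the groups overlapped only in that positive replicate 1 stood just above negative replicate 3. The difference was -1.77 (SE 0.62, adjusted p = 0.764, limma) and, without positive replicate 3, -1.20 (SE 0.44, adjusted p = 0.460). Over 17 alternatives for the 6 arrays it ran from -3.19 to -0.97 and passed with array weights only (adjusted p = 0.0182, range up to 0.983). In bulk samples fewer cells that transcribe Igf1 and less Igf1 RNA per cell cannot be told apart.

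The other 3 Igf1 probe sets also had negative differences, at -0.97, -0.65 and -0.24. The one without overlap, 1419519_at, had log2 values of 4.78, 4.60 and 4.12 in positive replicates 1, 2 and 3 and 5.17, 5.37 and 4.89 in negative replicates 1, 2 and 3. In positive replicate 3 this probe set read 0.08 deposited units, under the control of 1.12, so its place there was not measured. Its difference of -0.65 (SE 0.31, adjusted p = 0.764, limma) was small on a scale with a pseudocount of 16, which compresses such dim signals. The dimmest, 1452014_a_at, averaged 4.57 ± 0.47 in positive and 4.81 ± 0.30 in negative arrays (SD, n = 3 each), so its groups did not separate. It, too, was not above background in positive replicate 3.

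For Igf2, the main embryonic ligand, the difference was smaller than its standard error. Its bright probe set, 1448152_at, read 440, 222 and 8.17 deposited units in positive replicates 1, 2 and 3, and 700, 670 and 176 in negative replicates 1, 2 and 3, above the unspiked control on all 6 arrays. The normalized log2 values were 9.07, 8.41 and 9.08 in positive arrays and 8.78, 8.20 and 8.92 in negative arrays. The ranges nearly coincide, and in both groups replicate 2 was the lowest. The difference was 0.22 (SE 0.32, adjusted p = 0.849, limma), and its 95% interval of -0.50 to 0.94 covers changes of either sign. The interval without positive replicate 3 was -0.59 to 0.81, and the sign turned under 3 other scalings in the 6 arrays. A second, dim Igf2 probe set averaged 4.63 ± 0.36 in positive and 4.46 ± 0.10 in negative arrays (SD, n = 3 each).

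H19, the non-coding RNA made next to Igf2, exceeded the unspiked control on all 6 arrays. The RNA is the precursor of 2 mature microRNAs, and because the probe set is annotated to both genes its signal is given as H19/Mir675. The mature sequences are shown because the array reads their host transcript and not the microRNAs themselves. They are RefSeq sequences of GRCm38.p6, written 5′ to 3′, with the seed in capitals (bases 2 to 8), from the minus strand at chr7:142577112-142577133 for the 5p arm and chr7:142577078-142577099 for the 3p arm.
mmu-miR-675-5p: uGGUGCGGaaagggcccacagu
mmu-miR-675-3p: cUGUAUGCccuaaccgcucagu
The seeds differ from each other, and each occurs in 1 of the 1738 mature mouse microRNAs in the table. In deposited units H19/Mir675 gave 1673, 850 and 44.1 in positive replicates 1, 2 and 3, against 2337, 3322 and 812 in negative replicates 1, 2 and 3. Normalized log2 values were 10.74, 9.95 and 10.72 in positive arrays and 10.62, 10.74 and 10.64 in negative arrays. Only positive replicate 2 stood below the narrow range of the negative arrays, and the difference of -0.20 (SE 0.21, 95% interval -0.66 to 0.27) did not pass (adjusted p = 0.791, limma). Without positive replicate 2 the difference was 0.07. Without positive replicate 3 it was -0.32 (SE 0.23).

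Igf1r, the signalling receptor for both ligands, had 5 probe sets with differences of both signs in the 6 arrays. The brightest, 1452982_at, had log2 values of 7.23, 5.97 and 6.14 in positive replicates 1, 2 and 3 and 6.32, 6.26 and 6.76 in negative replicates 1, 2 and 3. Positive replicate 1 was the highest of the 6 arrays and positive replicate 2 the lowest, and the difference was 0.00 (SE 0.46, 95% interval -1.02 to 1.02). In the 6 arrays 3 Igf1r probe sets had a positive and 2 a negative difference, from -0.26 to 0.38. In the 5 arrays all 5 were positive, from 0.02 to 0.60, and none passed (limma). The Igf1r probe sets 1452108_at and 1446303_at exceeded the unspiked control on 2 and 3 of the 6 arrays, so they carry little information. In positive replicate 3, 1428967_at and 1426565_at read 0.04 and 0.54 deposited units, under the control of 1.12. Their 6-array differences of -0.26 and 0.16 therefore rest partly on values that were not above background.

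Igf2r, the clearance receptor for IGF2, gave probe sets that differed in behaviour. The brighter one, 1424112_at, had log2 values of 6.73, 5.29 and 4.02 in positive replicates 1, 2 and 3 and 6.26, 5.65 and 5.89 in negative replicates 1, 2 and 3. Its deposited signal in positive replicate 3 was 0.04, not above background, and its difference was -0.58 (SE 0.61) with that array and 0.08 (SE 0.41) without it. The other, 1424111_at, read 5.41, 4.57 and 5.07 in positive arrays and 5.93, 5.74 and 5.46 in negative arrays. Its groups did not overlap, and the difference was -0.69 (SE 0.37, adjusted p = 0.764, limma), or -0.78 (SE 0.33, adjusted p = 0.591) in the 5 arrays. The Airn/Igf2r probe set exceeded the unspiked control on 1 array, negative replicate 1, and was too dim to test in the 6 arrays. Its signal is therefore not assigned to Igf2r or to Airn.

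**Figure D2:**
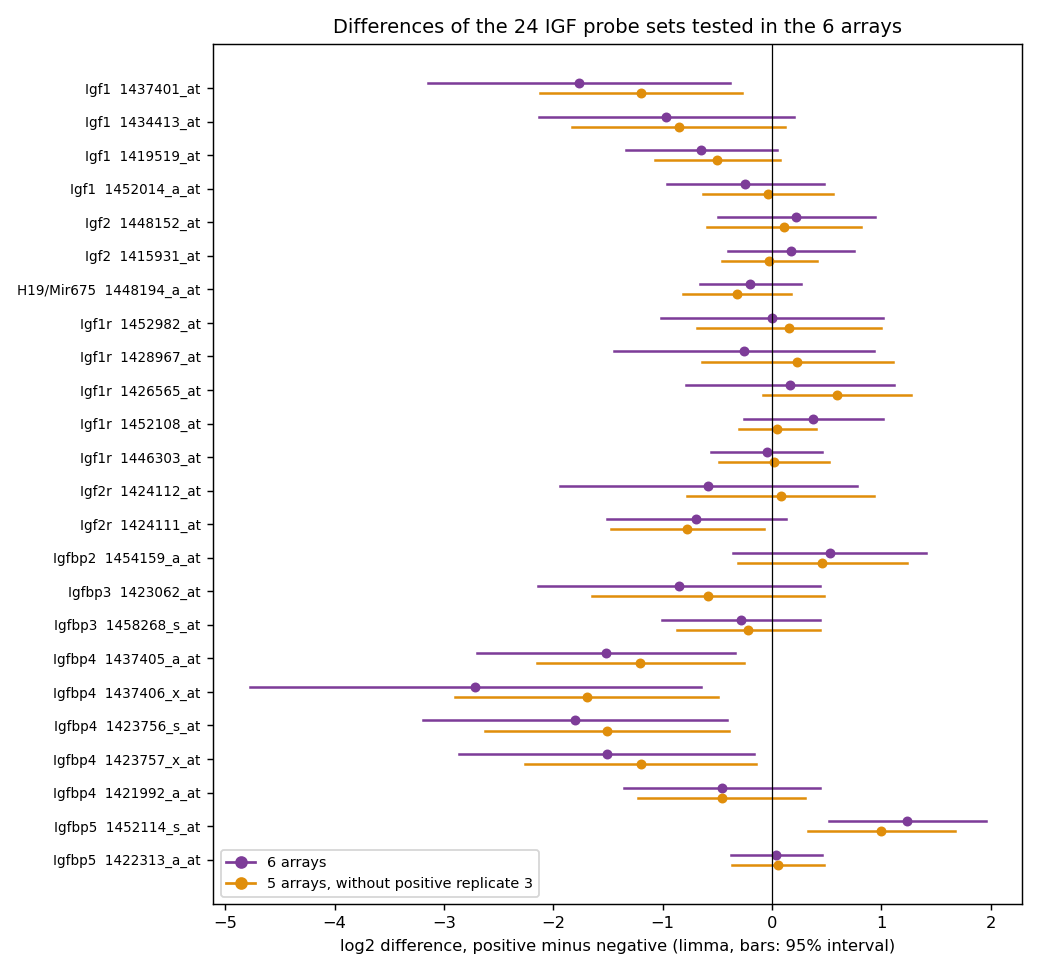
Log2 differences, reporter-positive minus reporter-negative, with 95% intervals from limma for the 24 IGF probe sets tested in the 6 arrays (purple) and for the same probe sets in 5 arrays without positive replicate 3 (orange). In the 6 arrays the interval lies above 0 for the bright Igfbp5 probe set (0.52 to 1.96), whose sign turns in the 6 but not in the 5 arrays in values as deposited or median centred, and below 0 for 4 Igfbp4 probe sets and 1 of Igf1, and none of the adjusted p-values passed.

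Igfbp5, a binding protein that also attaches to extracellular matrix, was the only IGF gene with a probe set above all negative arrays in every positive array after quantile normalization, but its mean difference turned negative in values as deposited or median centred where positive replicate 3 was included. Its bright probe set, 1452114_s_at, had log2 values of 9.21, 8.89 and 9.78 in positive replicates 1, 2 and 3, against 8.04, 8.31 and 7.81 in negative replicates 1, 2 and 3. The suffix _s_at marks a probe set whose probes may also match other transcripts, so the signal may not be that of Igfbp5 alone. The lowest positive array was 0.58 above the highest negative one. The mean was 9.29 ± 0.45 in positive and 8.06 ± 0.25 in negative arrays (SD, n = 3 each). The log2 difference was 1.24 (SE 0.32, unadjusted p = 0.00326, adjusted p = 0.764, limma). This unadjusted p ranked 94 among 29378. In the 5 arrays the difference was 1.002 (SE 0.32, adjusted p = 0.341, rank 488 of 29410).

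The direction for Igfbp5 depended on the scaling in the 6 arrays and did not in the 5 arrays without positive replicate 3. In deposited units its bright probe set gave 499, 338 and 15.5 in positive replicates 1, 2 and 3 and 419, 728 and 76.2 in negative replicates 1, 2 and 3. Its 6-array difference was -0.79 in values as deposited, where the median over all tested probe sets was -0.35, and -0.60 with median centring, where that median was -0.16. It was 0.76 with linear scaling to a common trimmed mean. In the 5 arrays it was 0.46 as deposited and 0.57 with median centring, and it was positive in all 15 alternatives, from 0.46 to 1.15. Adjusted p was 0.0603 to 0.983 over the 17 alternatives of the 6 arrays and 0.137 or more over those of the 5, so Igfbp5 passed in none. The other Igfbp5 probe set, 1422313_a_at, read 0.53 to 5.99 deposited units in positive and 0.29 to 12.9 in negative arrays, close to background, and had a difference of 0.04 (SE 0.19).

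Igfbp4, a binding protein that inhibits IGF action and is cleaved by the protease PAPP-A, was far lower in 2 of the 3 positive arrays and at the negative level in the other. The brightest of its 6 probe sets, 1437405_a_at, had log2 values of 9.18, 6.98 and 7.10 in positive replicates 1, 2 and 3 and 9.12, 9.45 and 9.24 in negative replicates 1, 2 and 3. In deposited units these were 482, 71.7 and 2.60 in positive arrays and 887, 1535 and 248 in negative arrays. The mean was 7.75 ± 1.23 in positive and 9.27 ± 0.17 in negative arrays (SD, n = 3 each), and positive replicate 1 lay within the negative range. The difference was -1.52 (SE 0.53, adjusted p = 0.764, limma) in the 6 arrays and -1.20 (SE 0.45, adjusted p = 0.479) in the 5.

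Positive replicate 1 was the highest positive array for all 5 tested Igfbp4 probe sets. Probe sets 1437406_x_at, 1423756_s_at and 1423757_x_at differed by -2.71 (SE 0.93), -1.81 (SE 0.62) and -1.51 (SE 0.61) in the 6 arrays. These are not independent readings, since the first carries the same sequence accession as the brightest probe set and the other pair share an accession. Suffixes _s_at and _x_at mark probe sets whose probes may also match other transcripts. All 4 lay within 0.13 of the negative mean in positive replicate 1 and deviated from it by -3.23 to -2.29 in positive replicate 2. In positive replicate 3 the 3 that exceeded the unspiked control deviated by -2.45 to -2.17. There 1437406_x_at read 0.87 deposited units, under the control of 1.12, so its distance was not measured, and its 6-array difference of -2.71 rests partly on that value. The dim 1421992_a_at differed by -0.46 (SE 0.40), and 1421991_a_at exceeded the unspiked control on no array. The calls depended on positive replicate 1 and on the model fitted. Without positive replicate 1, 1437406_x_at passed among the 6 arrays at -4.04 (adjusted p = 0.0481, limma), with its background value in positive replicate 3 included. With neither positive replicate 1 nor 3, positive replicate 2 alone against the negative arrays gave 4 Igfbp4 calls at -2.33 to -3.32 (adjusted p = 0.000492 to 0.0121), under the assumption that a lone sample varies like the others. With all 6 arrays kept, array weights called 3 Igfbp4 probe sets at -1.27 to -1.78 (lowest adjusted p = 0.00261, limma). Pool size as a block called 3 in the 5 arrays at -1.22 to -1.70 (lowest adjusted p = 2.28e-05, limma).

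**Figure D3:**
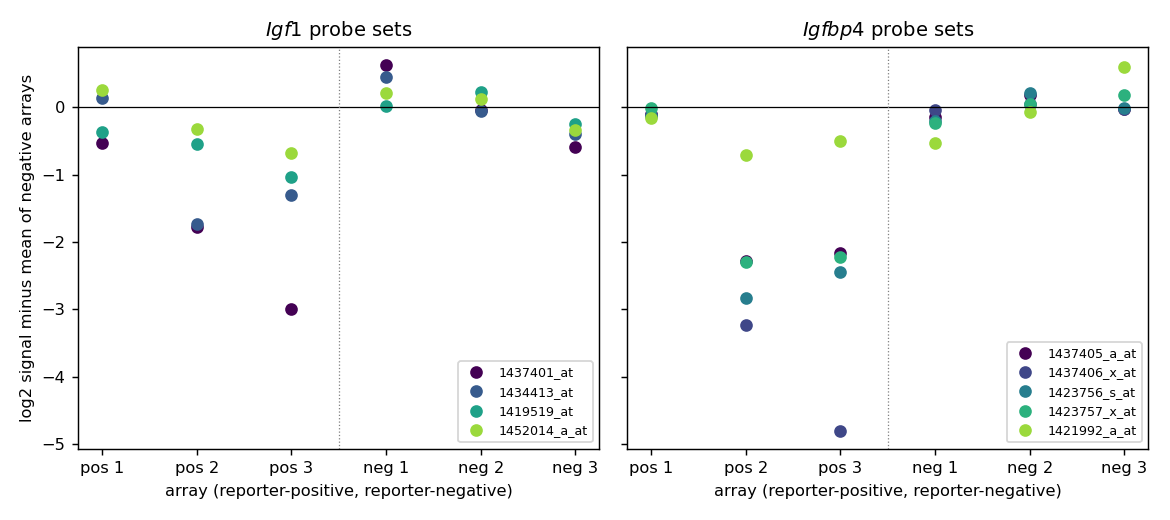
Log2 signal minus the mean of the negative arrays, by array, for the 4 Igf1 probe sets (left) and the 5 tested Igfbp4 probe sets (right), with reporter-positive arrays left of the dotted line and reporter-negative arrays right of it. The 4 brighter Igfbp4 probe sets stay near 0 in positive replicate 1 and lie at -3.23 to -2.29 in positive replicate 2, and the brightest Igf1 probe set lies at -0.52 and -1.78 in positive replicates 1 and 2. In positive replicate 3 the Igf1 probe sets 1437401_at, 1419519_at and 1452014_a_at and the Igfbp4 probe set 1437406_x_at were not above background. Their points there show no measured distance.

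The promoters of these binding proteins are shown because, among the brightest probe sets of the binding proteins, Igfbp4 had the lowest and Igfbp5 the highest difference after quantile normalization (-1.52 and 1.24). As deposited the 6 arrays gave -2.94 and -0.79, both negative. The sequences are from RefSeq (GRCm38.p6), 250 bases before to 50 after the annotated start, on the minus strand at chr1:72874816-72875115 for Igfbp5 and on the plus strand at chr11:99040994-99041293 for Igfbp4. Capitals mark any match on either strand to the TATA box letters TATAAA, the GC box letters GGGCGG, the GLI site letters GACCACCCA or the forkhead site letters TGTTTAC.
Igfbp5: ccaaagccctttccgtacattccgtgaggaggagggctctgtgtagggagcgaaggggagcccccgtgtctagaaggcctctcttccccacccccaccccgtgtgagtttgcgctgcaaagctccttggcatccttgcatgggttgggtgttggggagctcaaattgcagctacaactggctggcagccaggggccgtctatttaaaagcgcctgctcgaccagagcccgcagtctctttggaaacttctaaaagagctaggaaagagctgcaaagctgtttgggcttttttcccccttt
Igfbp4: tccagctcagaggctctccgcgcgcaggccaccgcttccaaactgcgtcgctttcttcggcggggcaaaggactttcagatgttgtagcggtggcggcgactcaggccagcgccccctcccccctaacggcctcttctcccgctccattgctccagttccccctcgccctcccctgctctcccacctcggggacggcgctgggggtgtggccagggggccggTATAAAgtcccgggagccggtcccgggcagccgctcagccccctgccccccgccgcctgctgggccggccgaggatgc
TATAAA occurred in 1 of 12 promoters of the 8 IGF genes with an entry, that of Igfbp4, and in 13.6% of 32851 promoters of the same length. GGGCGG occurred in 5 of the 12, in promoters of Igf2, Igf1r, Igf2r and Igfbp2, and in 35.7% of all. The GLI letters and the forkhead letters occurred in none of the 12, against 0.253% and 3.65% of all, and a missing match says only that these letters are not in the window.

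Igfbp2, a binding protein abundant in fetal tissues, had a small positive difference. Its single probe set had log2 values of 7.62, 7.16 and 7.63 in positive replicates 1, 2 and 3 and 6.73, 6.72 and 7.38 in negative replicates 1, 2 and 3. Positive replicates 1 and 3 exceeded all negative arrays, while positive replicate 2 lay below negative replicate 3. The difference was 0.53 (SE 0.40, 95% interval -0.36 to 1.41, adjusted p = 0.764, limma) and 0.46 (SE 0.37) in the 5 arrays, and its sign turned in values as deposited (-1.04 and -0.12) and median centred (-0.85 and -0.014).

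Igfbp3, the main carrier of IGFs in adult serum, was close to background in part of both groups. The brighter probe set, 1423062_at, read 22.3, 5.46 and 0.05 deposited units in positive replicates 1, 2 and 3, and 156, 56.6 and 1.78 in negative replicates 1, 2 and 3. It exceeded the unspiked control on 2 arrays of each group. Log2 values were 5.26, 4.56 and 4.03 in positive arrays and 6.74, 5.36 and 4.29 in negative arrays, so the groups overlapped. The difference was -0.85 (SE 0.58, adjusted p = 0.764, limma), or -0.59 (SE 0.50) in the 5 arrays, and the spread was wide in negative arrays (SD 1.23, n = 3).

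Ratios of 2 probe sets on the same array do not change when that array is scaled by a common factor, so they compare the groups without scaling between arrays. They were formed in deposited units for the 6 genes whose brightest probe set exceeded the unspiked control on all 6 arrays, which left out Igf1, Igf2r and Igfbp3. A ratio has no meaning as a relative abundance, because probe sets differ in affinity, and only its change between groups is used. Of 15 gene pairs, 9 had groups that did not overlap, where the background was 17.7% of all pairs among 3721 genes. The pairs share 6 genes and are not independent, and the smallest p that an exact permutation test of 3 against 3 arrays can give is 0.1.

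Igf2 kept its proportion to H19/Mir675 within the spread of the arrays. The signal ratio was 0.263, 0.261 and 0.185 in positive replicates 1, 2 and 3 and 0.300, 0.202 and 0.217 in negative replicates 1, 2 and 3, a mean log2 difference of -0.01. Igfbp5, Igfbp4 and Igfbp2 each had ratios to both whose groups did not overlap. The ratio of Igf2 to Igfbp5 was 0.882, 0.658 and 0.528 in positive arrays and 1.67, 0.919 and 2.31 in negative arrays, a log2 difference of -1.18 (two-sided exact permutation p = 0.1, Benjamini-Hochberg adjusted over the pairs 0.167). The ratio of H19/Mir675 to Igfbp5 differed by -1.16 in the same direction, with non-overlapping groups. The ratios of Igf2 and of H19/Mir675 to Igfbp2 differed by less, -0.40 and -0.38, also without overlap. Those to Igfbp4 differed by 1.73 and 1.74. Ratios show unequal change between probe sets, not that any of them stayed constant.

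Of the 15 pairs, Igfbp4 over Igfbp5 had the largest difference. Their ratio was 0.967, 0.212 and 0.168 in positive replicates 1, 2 and 3 and 2.12, 2.11 and 3.25 in negative replicates 1, 2 and 3. The log2 difference was -2.91 with positive replicate 3 and -2.43 without it (two-sided exact permutation p = 0.1, adjusted 0.167). Positive replicate 1, where Igfbp4 was at the negative level after normalization, was also below every negative array in this ratio. Igfbp2 over Igfbp4 differed by 2.12 and Igf2 over Igfbp4 by 1.73, both without overlap, while Igfbp2 over Igfbp5 differed by -0.78 with overlapping groups (exact permutation p = 0.2).

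**Figure D4:**
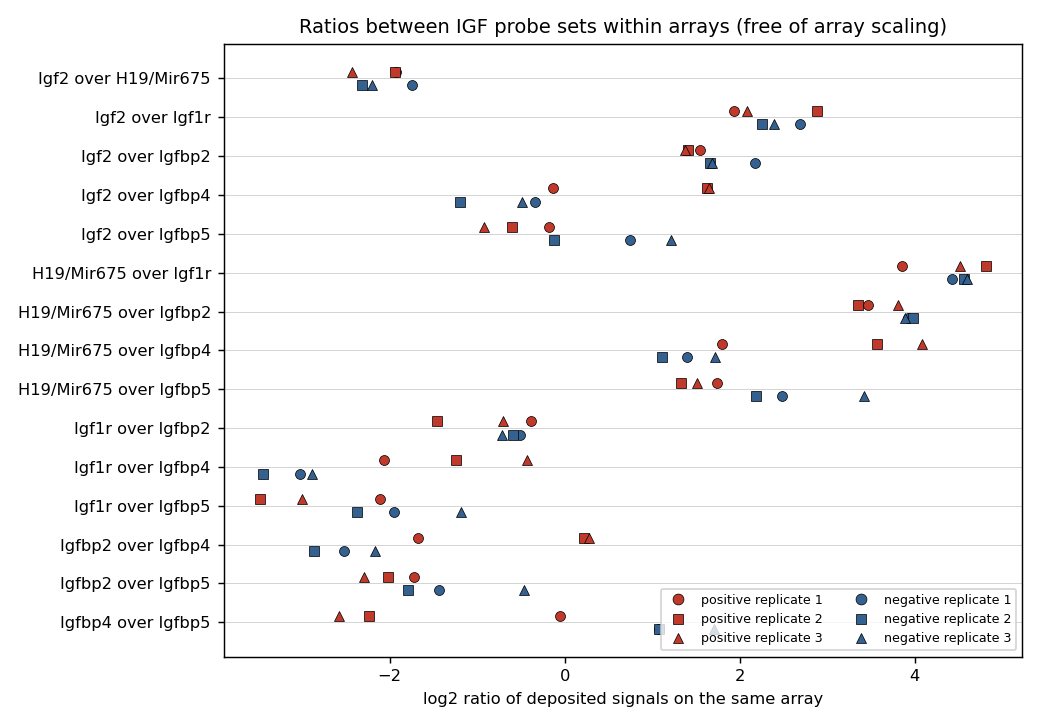
Log2 ratios of deposited signals between pairs of IGF probe sets on the same array, for 15 pairs of 6 genes, with reporter-positive arrays in red above reporter-negative arrays in blue and a symbol for each replicate. Igfbp4 over Igfbp5 shows the largest gap between groups (log2 difference -2.91), and the groups overlap for Igf2 over H19/Mir675 (-0.01).

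Markers of other cell types moved with several of these values. Mesenchymal markers had a median log2 deviation from the negative mean of -0.03, -1.76 and -1.96 in positive replicates 1, 2 and 3, and Igfbp4, at -0.10, -2.29 and -2.17, was likewise near 0 only in positive replicate 1. Their summed normalized signal was 437 to 3301 in positive and 2915 to 3925 in negative arrays, and all 15 had a negative difference in the 6 arrays, with 0 past the threshold (limma). Igf1 deviated by -0.52 and -1.78 and Igfbp3 by -0.21 and -0.91 in positive replicates 1 and 2, and neither was above background in positive replicate 3. Igfbp5 at 1.16, 0.83 and 1.72 and Igf2 at 0.44, -0.22 and 0.46 did not have this order. Epithelial markers deviated by 1.45, 2.75 and 2.92, with summed signals of 1069 to 2822 in positive and 72.2 to 83.2 in negative arrays. Erythroid markers deviated by -1.71, -1.54 and -2.32, endothelial markers by 0.21, 0.05 and -0.07, and leukocyte and macrophage markers by 0.53, 0.20 and -0.14. In positive replicates 1, 2 and 3 the unspiked control was exceeded by 5, 6 and 2 of 9 erythroid markers. The counts were 10, 3 and 1 of 12 for endothelial and 10, 6 and 2 of 12 for leukocyte and macrophage markers. In the 5 arrays all 11 tested leukocyte and macrophage markers had a positive difference, and 2 were called (limma). Muscle progenitor markers deviated by -0.01, -0.04 and 0.33 and neural and Schwann markers by 0.04, -0.03 and 0.19. Of these, 2, 1 and 3 of 8 muscle and 2, 1 and 1 of 5 neural markers exceeded the control. Medians near 0 in these lists therefore rest partly on values not above background and do not show similar cell content. The beta-actin 3′ to 5′ ratio, too, was high in positive replicates 2 and 3, and the Gapdh ratio was not, being highest in negative replicates 1 and 2. The part of mesenchymal cells or of RNA quality in the IGF values was not tested.

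**Figure D5:**
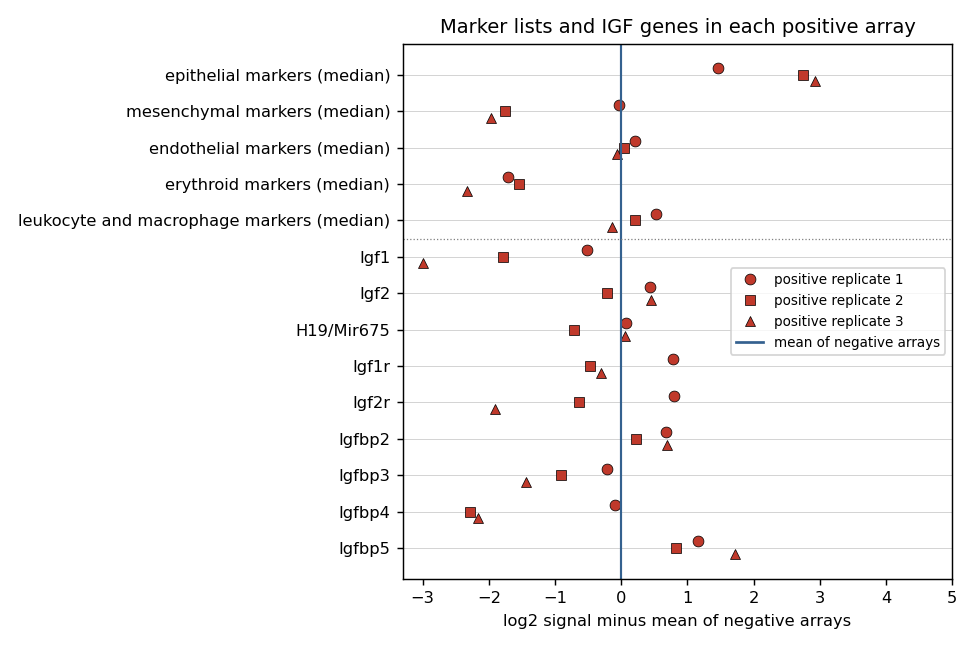
Log2 signal minus the mean of the negative arrays (blue line) in each of the 3 reporter-positive arrays, for the median of 5 marker lists above the dotted line and the brightest probe set of each IGF gene below it. Igfbp4 (-0.10, -2.29 and -2.17 in replicates 1, 2 and 3) and the mesenchymal markers (-0.03, -1.76 and -1.96) are near 0 only in replicate 1, while Igfbp5 lies at 0.83 to 1.72 on this scale, and its mean over the 3 arrays turns negative in values as deposited or median centred, which it does not without replicate 3. Igf1, Igf2r and Igfbp3 were not above background in replicate 3. There the unspiked control was exceeded by 7 of 15 mesenchymal, 1 of 12 endothelial, 2 of 9 erythroid and 2 of 12 leukocyte and macrophage markers.

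The genes with the most similar pattern over the 6 arrays were found by the root-mean-square difference of log2 deviations among 13132 candidates. For Igfbp4 they were Pdgfrb (0.15), Gli2 (0.18) and Emilin1 (0.19), which differed between groups by -1.68, -1.30 and -1.34. Pdgfrb, a receptor of mesenchyme and pericytes, is one of the mesenchymal markers. It read 2.75 and 0.11 deposited units in positive replicates 2 and 3, under the unspiked controls of 4.41 and 1.12. Its match to Igfbp4 and its group difference therefore rest partly on values that were not above background. For Igf1 the nearest was Gas1, a cell surface protein that binds hedgehog ligands, at 0.05, with a group difference of -1.72, followed by Daam1 (0.20) and Kank2 (0.27). For Igfbp5 they were Zfp91 (0.20), Inava (0.20) and Upk1b (0.23), the last a uroplakin of urothelium, with group differences of 1.12, 1.06 and 1.26. The genes nearest to Igfbp2 were Copa (0.06), Tsc2 (0.08) and Lancl1 (0.09). Axl, Pknox1 and Ccdc90b were nearest to Igf2 (0.11 to 0.14), and Slc25a22, Ccp110 and Spata2 to H19/Mir675 (0.07 to 0.09). Ptpra, Zbtb12 and Plvap were nearest to Igf1r (0.12 to 0.15), Selenos, Trps1 and Rcn3 to Igf2r (0.15 to 0.21), and Uxs1, Bmp5 and Lum to Igfbp3 (0.29 to 0.30). None of these genes passed in the 6 arrays (limma). Igf1, Igf2r and Igfbp3 were not above background in positive replicate 3, nor was Igfbp3 in negative replicate 3. Their matches therefore rest partly on values that were not measured. Plvap and Lum exceeded the unspiked control on 3 of the 6 arrays.

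Other genes of the IGF pathway were read from 5 lists holding 85 genes, and 75 of the 80 measured ones passed the filter on dim signals in the 6 arrays. None was called higher or lower in either comparison (limma), and 30 of 75 had a positive difference in the 6 arrays. Their median difference was -0.11, beside -0.01 over all tested probe sets. Without positive replicate 3, 36 of 73 were positive and the median was -0.00074. Groups did not overlap for 1 of the 75, the forkhead factor gene Foxo4, lower and named after its values were seen, against a background of 5.63% higher and 6.66% lower. It read 4.70, 4.88 and 4.27 in positive replicates 1, 2 and 3 and 5.12, 4.98 and 5.08 in negative replicates 1, 2 and 3, a difference of -0.44 (SE 0.30). In positive replicate 3 its deposited signal of 0.20 was under the control of 1.12, so Foxo4 was not above background there.

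Among further binding proteins and proteases, 7 of 16 tested genes had a positive difference. Mmp2, a matrix metalloproteinase, differed by -1.30 (SE 0.65) in the 6 arrays and -0.81 in the 5, and Ctsl, a lysosomal protease, by -0.95 in the 6 arrays and 0.05 in the 5. Ctsd, another lysosomal protease, differed by -0.23 in the 6 arrays and 0.42 in the 5. In the list of receptor relatives and docking proteins 8 of 17 were positive. The insulin receptor gene Insr differed by -0.71, the adaptor Grb2 by -0.60, the docking protein Gab1 by 0.40 and the cytokine signalling inhibitor Socs3 by -0.40, none past the threshold. In the 5 arrays these were -0.26, -0.16, 0.99 and -0.77. Ctsl, Ctsd, Insr and Grb2 read 0.06, 0.08, 0.07 and 0.05 deposited units in positive replicate 3, under the control of 1.12. The 6-array differences of these genes therefore rest partly on values that were not above background.

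In the PI3 kinase and AKT branch 6 of 19 genes had a positive difference and the median was -0.34 in the 6 arrays and -0.01 in the 5. Rictor, a subunit of mTOR complex 2, had log2 values of 4.70, 4.23 and 4.05 in positive replicates 1, 2 and 3 and 5.82, 5.81 and 4.23 in negative replicates 1, 2 and 3, a difference of -0.96, or -0.89 in the 5 arrays. Its probe set exceeded the unspiked control on 3 of 6 arrays, and it was called with array weights (adjusted p = 0.00171). Rptor, the matching subunit of mTOR complex 1, differed by 0.71 in the 6 arrays and 0.23 in the 5, and the translation inhibitor Eif4ebp1 by 0.31 and 0.84. Both turned negative in the 6 arrays in values as deposited or median centred, as did Gab1. Both measured Igf2 mRNA binding proteins had positive differences, Igf2bp1 at 0.84 in the 6 arrays and 0.34 in the 5 and Igf2bp3 at 0.23 and 0.58, which turned negative in the same settings.

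No imprinted growth gene passed (limma). Of 21 tested, 7 had a positive difference and the median was -0.05. Mest, a paternally expressed gene of embryonic mesoderm, had log2 values of 7.32, 4.86 and 5.12 in positive replicates 1, 2 and 3 and 7.30, 7.14 and 7.61 in negative replicates 1, 2 and 3, a difference of -1.58 (adjusted p = 0.764, limma), or -1.32 in the 5 arrays. Positive replicate 1 was again at the negative level, and without it and positive replicate 3 Mest was called at -2.68 (adjusted p = 0.00667), a comparison of positive replicate 2 alone under the same assumption about a lone sample. Plagl1, a zinc finger factor that activates Igf2 and H19 in mouse, differed by -1.28 in the 6 arrays and -0.36 in the 5. The non-coding RNA Meg3 differed by -0.37 and -0.47.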

How the data were processed

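The authors deposited 1 intensity per probe set and array, on a linear scale. RNA was labelled with biotin, per the labels' protocols, and GCOS is named without a version for 1 sample, per the submitters' processing notes. Summarization and scaling were not stated. After 64 control probe sets were set aside, signals were quantile normalized, transformed to log2(signal + 16) and tested where the mean exceeded the 30th percentile of named probe sets, with limma 3.58.1 in R 4.3.3 (lmFit and eBayes with an intensity trend, group as the only term, Benjamini-Hochberg threshold 0.05). The 5 arrays without positive replicate 3 were normalized and fitted again. Background on an array was the brightest of 27 unspiked bacterial controls. Of the probe sets 34945 had 1 gene, 932 several and 9160 none in the annotation used, with symbols updated through RefSeq (GRCm38.p6). Promoters on chromosome 18 were left out of motif counts. P-values measure the spread between arrays, 1 per pool and fraction, and the number of arrays limits precision.

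The 9 genes, lists and tests were chosen with earlier results of these data known, and the within-array ratios after these values were seen. Named were all members, from each list any called gene and the 2 largest differences in either comparison, and the 3 nearest patterns per member. Pool size was a block only as an alternative, because the labels do not say that arrays of equal pool size share a pool. The sample titles do number the positive and the negative array of each pool size next to each other. Deviations of positive and negative arrays correlated across probe sets at 0.122, 0.032 and 0.105 for equal pool sizes. For unequal pool sizes the correlations were -0.130 to 0.066. These values do not settle whether pools were shared. Other alternatives were the scaling, pseudocount, filter, 1 probe set per gene, array weights, variance trend and leaving out each array.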

Additional observations from a re-analysis of the deposited data

How the results depend on the processing

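No IGF probe set passed in the 6 arrays under the alternatives run, except 4 with array weights (Igf1 and 3 of Igfbp4) and 0 to 1 when an array was left out, the 1 being Igfbp4 without positive replicate 1. In the 5 arrays the exceptions were 5 with pool size as a replicate block and 0 to 4 when an array was left out, the 4 being Igfbp4 without positive replicate 1. The block gave Igf1 at -1.50 (adjusted p = 0.00320), Igfbp3 at -1.22 (0.00372) and Igfbp4 at -1.22, -1.70 and -1.52 (0.00597, 2.28e-05 and 0.000817, limma), and also Rictor at -1.47 (2.66e-05) and Mest at -1.19 (0.0428). Igf2 did not pass with the block, at 0.22 in 6 arrays (adjusted p = 0.810) and 0.25 in 5 (0.828), nor did Igfbp2, at 0.53 (0.719) and 0.68 (0.435). The labels do not say whether arrays of equal pool size share a pool. Of 915 repeated values for IGF and named pathway probe sets, 836 kept their direction and side of the threshold, 18 newly passed and 61 changed sign. No call could be lost, because none of these probe sets had passed in the main comparisons. The cause was not tested.

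Over all probe sets, 4 were called in the 6 arrays, against 0 in values as deposited, 0 with a trimmed mean, 41 with median centring (40 higher and 1 lower), 9 with a pseudocount of 1, 0 with one of 64, 9 without a filter, 2 with 1 probe set per gene, 757 with array weights (387 higher and 370 lower), 0 with the replicate block, 0 without a trend and 0 to 112 when an array was left out, the 112 without positive replicate 3. In the 5 arrays 112 were called (93 higher and 19 lower), against 0 as deposited, 74 with median centring (69 higher and 5 lower), 52 with a pseudocount of 1, 30 without a filter, 953 with the replicate block (453 higher and 500 lower), 23 without a trend and 42 to 383 when an array was left out.

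Signs turned as follows, on the log2 scale. As deposited, the 6 arrays gave Igf2 -1.72, Igf1r -1.05, Igfbp2 -1.04, Igfbp5 -0.79, Gab1 -0.51, Rptor -0.37, Eif4ebp1 -0.39, Igf2bp1 -0.40 and Igf2bp3 -1.003, and the 5 arrays gave Igf2 -0.47, Igf1r -0.34, Igf2r -0.36, Igfbp2 -0.12, Ctsl -0.55, Rptor -0.034, Igf2bp1 -0.0067 and Igf2bp3 -0.013. Median centring gave Igf2 -1.53, Igf1r -0.86, Igfbp2 -0.85, Igfbp5 -0.60, Gab1 -0.32, Rptor -0.18, Eif4ebp1 -0.20, Igf2bp1 -0.21 and Igf2bp3 -0.81 in 6, and Igf2 -0.36, Igf1r -0.24, Igf2r -0.25, Igfbp2 -0.014 and Ctsl -0.44 in 5. The trimmed mean gave Igf2 -0.32, Igf1r -0.11 and Igf2bp3 -0.023 in 6 and Ctsl -0.035 in 5. A pseudocount of 1 gave Igf1r -0.019, array weights Igf2r 0.11 and Ctsd 0.47, and the replicate block Ctsl -0.090 in 5. With an array left out, the 6 arrays gave -0.40 to 0.24 for Igf1r, -0.33 to 0.066 for H19, -1.28 to 0.080 for Igf2r, -0.16 to 0.99 for Gab1, -0.091 to 0.84 for Eif4ebp1, -0.73 to 0.42 for Ctsd, -1.61 to 0.055 for Ctsl and -0.022 to 0.58 for Igf2bp3. The 5 arrays gave -0.22 to 0.43 for Igf2, -0.50 to 0.81 for Igf1r, -0.69 to 0.85 for Igf2r, -0.71 to 0.078 for H19, -1.29 to 0.083 for Igfbp3, -0.26 to 0.37 for Ctsl, -1.81 to 0.17 for Mmp2 and -1.49 to 0.75 for Plagl1.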
